A study of Mus musculus with 20 samples.

Results

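The 10 genes described here encode enzymes around Aldh18a1 that make and break down proline, ornithine, citrulline and arginine: Aldh18a1, Oat, Pycr1, Prodh, Ass1, Asl, Otc, Cps1, Arg1 and Arg2. All 10 were found by symbol among the 35204 genes of the count table, and all 10 were among the 16306 genes tested. Aldh18a1 was chosen by its lower level on the Trp-deficient diet in mice with an intact microbiota, and the other 9 were listed around it by their place in the same reactions. Values of that comparison are therefore given as a description, with no p-value printed. Where genes are counted under a significance limit there, the count is part of this description. RNA was sequenced from the terminal ileum of 20 female C57Bl6 mice, 7 weeks old at the start, with 5 mice in each of 4 groups. Mice fed control diet (CD) or Trp-deficient diet (TDD) for 3 weeks either remained specific pathogen-free (SPF) or received antibiotics (ABX), and all had been on the control diet beforehand. Both were purified amino acid diets that differ in tryptophan. ABX consisted of ampicillin, vancomycin, metronidazole, neomycin and gentamycin in drinking water that also held sucrose, so that the drugs and the sucrose cannot be told apart. The cage of each mouse is not given in the sources used here.

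In these reactions, glutamate is converted to pyrroline-5-carboxylate by the synthase that Aldh18a1 encodes. From there the route divides. Pycr1 reduces pyrroline-5-carboxylate to proline, Prodh oxidises proline back to it, and Oat interconverts it with ornithine. In enterocytes, Cps1 makes carbamoyl phosphate and Otc joins it to ornithine to give citrulline, which the small intestine releases for the kidney to turn into arginine. Ass1 and Asl convert citrulline to arginine, and the arginases Arg1 and Arg2 split arginine into ornithine and urea.

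Aldh18a1 (ENSMUSG00000025007.13) lies on chromosome 19 of GRCm38, from 40550257 to 40588463 on the minus strand. Of its annotated transcripts, Aldh18a1-207 held 50.5% of the gene's TPM over the 20 mice, Aldh18a1-201 held 31.1% and the fragment Aldh18a1-206, of 344 bases, held 13.4%. The first pair each have 19 exons and differ at 2 places only. Aldh18a1-201 starts 94 bases further upstream, and its exon 7 ends 6 bases later (chr19:40574211-40574216), within the coding sequence. These stretches are shown because they tell the short and the long coding form apart, with the 6 added bases in capitals (GENCODE M21, 5′ to 3′ on the minus strand).
Aldh18a1-201 (long, 2385 coding bases): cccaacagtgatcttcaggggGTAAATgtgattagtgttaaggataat
Aldh18a1-207 (short, 2379 coding bases): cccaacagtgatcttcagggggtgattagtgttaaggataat
As background, the enzyme made from the short form is inhibited by ornithine and is typical of the gut, whereas the long form is largely insensitive to ornithine.

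The bases before the start of Aldh18a1 and of Oat, which encodes ornithine aminotransferase, are shown for their levels over the 20 mice. These had the highest Pearson r of any pair among the 10 (0.934), which holds differences between groups. Within groups r was 0.34, below that of Pycr1 and Arg1 (0.673). RefSeq (GRCm38.p6) gave promoters for 6 of the 10 genes, namely Aldh18a1, Oat, Pycr1, Prodh, Ass1 and Otc. Asl, Cps1, Arg1 and Arg2 were not among them. Both strands were searched for the E-box CACGTG, the amino acid response element TGATGNAAN of ATF4 and CEBP factors, and the glucocorticoid response element. No promoter of the 6 matched more than 1 of these motifs.
Aldh18a1, chr19:40588464-40588713, minus strand, E-box in capitals: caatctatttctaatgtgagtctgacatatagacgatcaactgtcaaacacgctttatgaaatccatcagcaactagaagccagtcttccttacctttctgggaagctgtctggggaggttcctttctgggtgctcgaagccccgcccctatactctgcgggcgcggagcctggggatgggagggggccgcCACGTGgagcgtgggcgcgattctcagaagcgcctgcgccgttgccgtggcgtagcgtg
Oat, chr7:132576399-132576648, minus strand, no motif: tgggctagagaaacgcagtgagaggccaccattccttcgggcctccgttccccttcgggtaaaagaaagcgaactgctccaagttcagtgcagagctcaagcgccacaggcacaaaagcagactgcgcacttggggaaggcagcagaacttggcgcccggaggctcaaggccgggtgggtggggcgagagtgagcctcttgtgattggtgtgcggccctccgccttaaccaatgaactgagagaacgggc
The E-box was also found in the promoter of Ass1, and it was held by 7.15% of the 32851 promoters of the table. Pycr1 was the only one of the 6 with the amino acid response element, which 3.95% of all promoters held. Its match is shown with 15 bases on each side (chr11:120643828-120643866, minus strand): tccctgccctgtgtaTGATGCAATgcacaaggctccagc
The glucocorticoid response element was in none of the 6 and in 0.472% of all promoters. A match describes letters and not a bound site.

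Levels of different genes were compared in TPM, which accounts for transcript length. Oat had the highest mean over the 20 mice (706 TPM), followed by the mitochondrial arginase Arg2 (326 TPM), Cps1 (124 TPM), Aldh18a1 (93.5 TPM) and Otc (79.0 TPM). The argininosuccinate enzymes were far lower, with 19.2 TPM for Asl and 6.81 TPM for Ass1. The proline enzymes were also low, with 18.7 TPM for Prodh and 3.94 TPM for Pycr1, and the cytosolic arginase Arg1 was lowest with 0.931 TPM. Thus the genes that lead from glutamate to citrulline were all more abundant than those that lead from citrulline to arginine. Between neighbours in this order, single mice overlapped for Cps1 and Aldh18a1, Aldh18a1 and Otc, Asl and Prodh, and Ass1 and Pycr1, so that these pairs are not ordered beyond their spread. In CD mice the mean of Aldh18a1 was above that of Cps1, at 160.4 ± 28.5 TPM against 130 ± 18.2 TPM (SD, n = 5). Single CD mice overlapped, at 126 to 200 TPM for Aldh18a1 and 100 to 146 TPM for Cps1. In TDD mice Aldh18a1 stood at 63.0 ± 7.99 TPM, beside Otc with 64.7 ± 4.78 TPM (SD, n = 5).

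**Figure D1:**
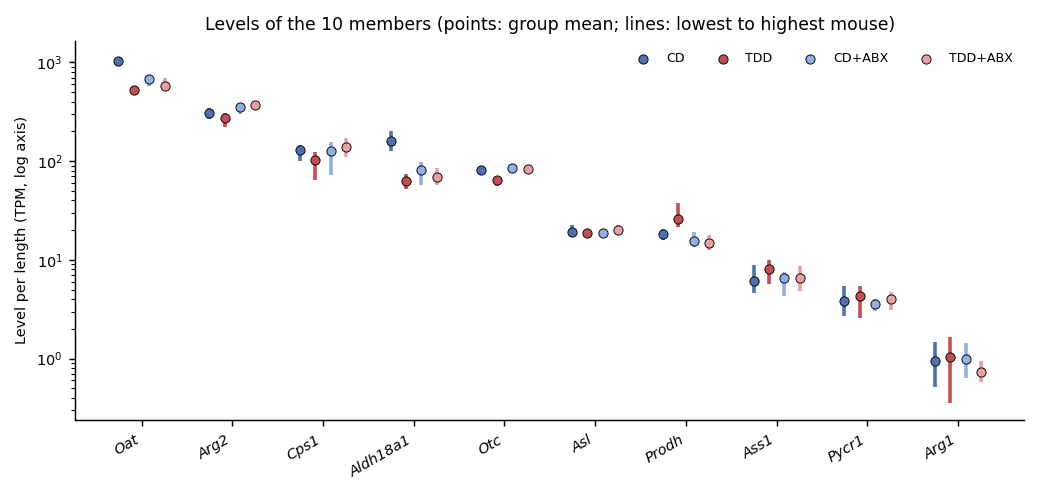
Level of each of the 10 genes per transcript length (TPM, log axis), by group, with the group mean as a point and a line from the lowest to the highest of the 5 mice. Oat ranks highest, with a mean of 706 TPM over the 20 mice, and Arg1 lowest with 0.931 TPM, and the CD points of Aldh18a1 and Oat stand above those of the other 3 groups.

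Total counts per mouse ranged from 36676963 to 58662617. The enterocyte genes Vil1, Alpi, Fabp2 and Krt20 were abundant in all mice, as were the Paneth cell genes Lyz1 and Defa24. Slc10a2 and Fabp6, which mark enterocytes of the distal ileum, were low in SPF mice, with means of 2.36 CPM and 1.17 CPM on CD, and 5.89 CPM and 1.40 CPM on TDD. With ABX they averaged 39.5 CPM and 41.6 CPM on CD, and 37.0 CPM and 20.1 CPM on TDD. These markers thus differed between SPF and ABX-treated mice, and whether the pieces came from the same position along the gut was not tested, which touches every comparison of ABX with none. The liver gene Alb was between 0 and 14.9 CPM. CD mouse 2 correlated least with its own group (median r = 0.964), and its effect on Ass1, Oat, Aldh18a1, Glud1 and Car5a is given beside them. In bulk tissue, fewer cells of a type and less RNA per cell cannot be told apart.

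In SPF mice, TDD went with lower levels of Aldh18a1, Oat and Otc and a higher level of Prodh. With q as the p-value adjusted by Benjamini and Hochberg, 1 of the 10 genes was higher and 3 were lower at q under 0.05, and Aldh18a1 was also past 2-fold. Aldh18a1 was chosen by this comparison, so its place in these counts was set by the choice. Over all genes tested, 6.7% were higher and 7.73% lower at this q, and 1.84% were past both limits, and nothing is read from the counts against these shares. The median log2 fold change was -0.03 over the 10 genes and 0.01 over all genes. CD and TDD mice did not overlap for Aldh18a1, Oat and Otc, where the groups were apart for 9.58% of all genes.

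Aldh18a1 was measured at 381, 292, 437, 296 and 375 CPM in the 5 CD mice and at 124, 171, 145, 138 and 142 CPM in the 5 TDD mice. Every CD mouse was thus above every TDD mouse. The means of 356 ± 61.5 CPM and 144 ± 17.1 CPM (SD, n = 5) gave a log2 fold change of -1.30 with a standard error of 0.13, or 2.47-fold. Both main transcripts were lower on TDD. The short form went from 88.0 ± 16.6 to 31.9 ± 4.16 TPM and the long form from 46.3 ± 8.39 to 20.1 ± 4.52 TPM (SD, n = 5).

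Oat was measured at 1533, 1669, 1619.8, 1629 and 1635 CPM in CD mice and at 951, 911, 834, 801 and 856 CPM in TDD mice. The CD mice lay close together and well above the TDD mice. The means were 1617 ± 50.5 CPM and 871 ± 60.1 CPM (SD, n = 5). TDD mice were thus 1.86-fold lower, with a log2 fold change of -0.89 (standard error 0.07). Otc, the ornithine transcarbamylase, was less different but also apart. Its CD mice had 131, 133, 134, 153 and 149 CPM and its TDD mice 105, 121, 112, 120.3 and 120.5 CPM, with a log2 fold change of -0.27 (standard error 0.07). The macrophage genes Adgre1, Csf1r, Cd68 and Mrc1 were lower along with these genes, at a summed 74.2 to 94.7 CPM in CD and 42.4 to 66.9 CPM in TDD mice, with 3 of the 4 at q under 0.05. The fibroblast genes Col1a1, Col1a2 and Pdgfra summed to 151 to 218 CPM and 117 to 143 CPM, with 2 of the 3 lower. None of these 7 markers was at 0 in any mouse. The goblet cell genes Muc2, Tff3 and Clca1 summed to 2850 to 3464 CPM in CD and 1735 to 2648 CPM in TDD mice, with 1 of the 3 lower, and 2 of 3 erythroid genes were lower (mean sums of 27.1 CPM and 13.5 CPM). The liver genes Alb, Cyp2e1, Serpina3k and Apoa2 went the other way, with 2 of the 4 higher. Their sums were 1.42 to 6.70 CPM in CD and 1.99 to 22.0 CPM in TDD mice. Of the 3 Paneth cell genes 1 was also higher (mean sums of 8940 CPM in CD and 9961 CPM in TDD mice). None of the 6 enterocyte genes was higher or lower at this q, with mean sums of 9049 CPM in CD and 9044 CPM in TDD mice. The crypt and cycling genes (903 and 754 CPM) and the smooth muscle genes (1158 and 1121 CPM) also held no call, here or in the comparisons below. The part of these cells in the levels was not tested.

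Prodh, the proline dehydrogenase that starts proline breakdown, went the other way. Its CPM are 2 times what its transcripts hold, as for 141 of 12633 genes compared, which leaves its fold changes as they are. CD mice had 39.0, 41.6, 43.9, 52.9 and 57.3 CPM and TDD mice 101, 66.0, 55.8, 69.4 and 58.1 CPM. The groups overlapped, since the highest CD mouse lay above the lowest TDD mouse, and mouse 1 stood highest on TDD. The log2 fold change was 0.58 (standard error 0.15), and Prodh no longer had q under 0.05 when the 2 SPF groups were fitted alone (log2 fold change 0.58).

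The other 6 genes did not reach q under 0.05 in this comparison. Pycr1, which makes proline, averaged 4.92 ± 1.37 CPM in CD mice and 5.71 ± 1.63 CPM in TDD mice. Ass1, the argininosuccinate synthase, averaged 6.95 ± 1.93 CPM and 9.00 ± 1.35 CPM, and differed by 0.37 (log2). Once CD mouse 2 was left out, this was 0.54 and q was under 0.05. Asl, the argininosuccinate lyase, had the smallest standard error among the 10 (0.05), at 20.2 ± 0.834 CPM and 20.9 ± 0.391 CPM. Cps1, the mitochondrial carbamoyl phosphate synthase, had 552 ± 70.7 CPM and 455 ± 97.5 CPM, and TDD mouse 1 was lowest at 298 CPM. The arginases had 304 ± 36.7 CPM and 283 ± 30.6 CPM for Arg2, and 0.860 ± 0.341 CPM and 1.13 ± 0.512 CPM for Arg1 (SD, n = 5 throughout), which was counted 16 to 70 times per mouse in these groups.

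**Figure D2:**
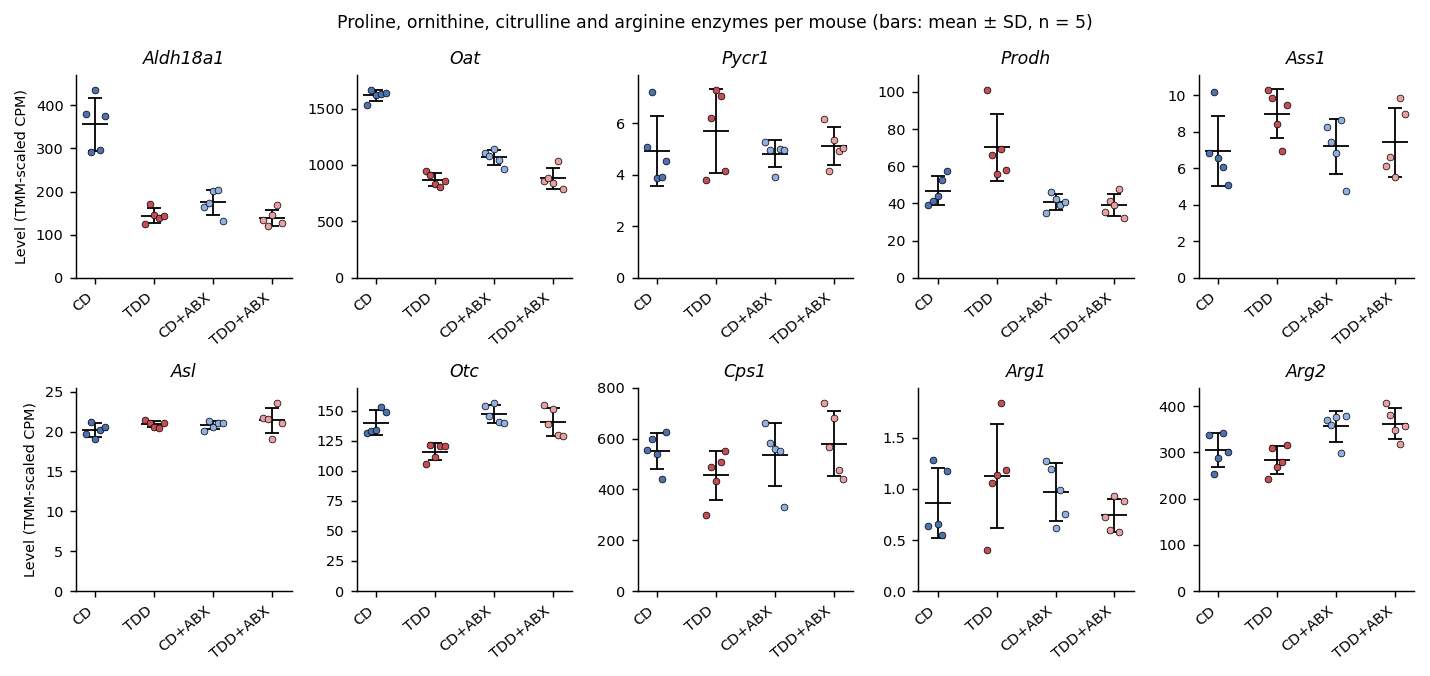
Level of each of the 10 genes in every mouse (TMM-scaled CPM, axis from 0), with 5 points per group and bars for the mean and SD. All 5 CD mice lie above the other 15 mice for Aldh18a1 (lowest CD mouse at 292 CPM) and for Oat (lowest at 1533 CPM), whereas Asl stays between 19.1 and 23.6 CPM in all 20 mice.

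In ABX-treated mice, none of the 10 genes had q under 0.05 for TDD against CD, and 2 of them, Aldh18a1 and Oat, had an unadjusted p under 0.05 (edgeR's quasi-likelihood test). Over all genes, 0.681% were higher and 1.09% lower at this q, and 0.331% were past both limits. With DESeq2 1 of the 10 genes passed, and with limma-voom none did. These 10 mice took no part in the choice of Aldh18a1. The groups overlapped for all 10 genes, where 4.78% of all genes were apart, and the median log2 fold change was -0.01 over the 10 genes and -0.003 over all genes. As in SPF mice, 2 of the 3 fibroblast genes were lower on TDD at q under 0.05. They summed to 138 to 202 CPM on CD and 111 to 145 CPM on TDD, and the part of these cells was not tested. None of the 6 enterocyte genes passed, with mean sums of 13413 CPM on CD and 13826 CPM on TDD.

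Aldh18a1 was measured at 165, 173, 201, 204 and 132 CPM in CD mice with ABX and at 134, 119.6, 146, 168 and 127 CPM in TDD mice with ABX. The ranges overlapped, and mouse 5 on CD was below all but 2 of the TDD mice. The log2 fold change was -0.33 (standard error 0.13, q = 0.225, edgeR). Oat was measured at 1110.3, 1082, 1141, 1044 and 963 CPM on CD and at 860.4, 882, 844, 1035 and 789 CPM on TDD. TDD mouse 4 was the only one of its group above the lowest CD mouse. The log2 fold change was -0.28 (standard error 0.07, q = 0.0567, edgeR), and it passed with DESeq2 (q = 0.00371) and in 4 of 20 fits with 1 mouse left out, with q = 0.0244 without TDD+ABX mouse 4 and q = 0.0478 without CD mouse 2. Among the remaining 8, the log2 fold changes ran from -0.38 for Arg1 (standard error 0.32, q = 0.631) to 0.11 for Cps1 (standard error 0.18, q = 0.824). Prodh, which was higher on TDD in SPF mice, changed by -0.05 (standard error 0.15, q = 0.907), and Otc by -0.07 (standard error 0.06, q = 0.686).

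The difference between the diet effects with and without ABX was tested as an interaction. Of the 10 genes 1 passed at q under 0.05 and none was also past 2-fold, where 0.0184% of all genes were higher, 0.0184% lower and 0.0245% past both limits. This gene was Oat, whose diet effect (log2) was 0.62 higher with ABX than without, with a standard error of 0.10 and q = 0.0433 (edgeR). The call was not firm, as q was 0.0621 with limma-voom, 0.0512 with RLE scaling and 0.0783 without a filter on low counts. It also failed in 14 of the 20 fits that left out 1 mouse (q from 0.0212 to 0.0995 over all 20), and q was 1.68e-07 with DESeq2. For Aldh18a1 the difference was 0.97 (standard error 0.19). With 1 mouse left out it ran from 0.88 to 1.05, the highest being without CD mouse 2. It is described only, since it holds the SPF comparison. Of the other 8, Prodh had a difference of -0.63 (standard error 0.21, q = 0.318), Otc of 0.21 (standard error 0.09, q = 0.502) and Cps1 of 0.39 (standard error 0.26, q = 0.717).

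The effect of ABX was next compared within each diet. On CD, Aldh18a1 and Oat were lower with ABX and none of the 10 genes was higher at q under 0.05, where 5.35% of all genes were higher and 7.43% lower. Aldh18a1 was past 2-fold as well, as were 2.3% of all genes. This comparison shares the CD mice with the one that chose Aldh18a1, so that its value for this gene is a description. CD mice with and without ABX did not overlap for Aldh18a1 and Oat, where 9.74% of all genes were apart.

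Aldh18a1 averaged 175 ± 29.5 CPM with ABX against 356 ± 61.5 CPM without (SD, n = 5). The log2 fold change was -1.02, with a standard error of 0.13. It dropped below 2-fold without CD mouse 1 or 3 or without CD+ABX mouse 1 or 5, with the smallest change at -0.94. Oat averaged 1068 ± 68.8 CPM against 1617 ± 50.5 CPM (SD, n = 5), and its log2 level fell by 0.60 with a standard error of 0.07 (q = 7.68e-05, edgeR). Its 5 ABX mice lay between 963 and 1141 CPM, below all 5 CD mice. The macrophage genes were also lower, with 4 of 4 at q under 0.05 and sums of 46.7 to 56.3 CPM with ABX. Of the 4 liver genes 1 was higher. The 6 enterocyte genes summed to 5829 to 10916 CPM without ABX and 10937 to 18659 CPM with it, and 3 of the 6 were higher. The part of these cells was not tested. Arg2 averaged 356 ± 33.2 CPM with ABX against 304 ± 36.7 CPM without (log2 fold change 0.23, standard error 0.10, q = 0.129), and the remaining 7 genes had log2 fold changes between -0.20 for Prodh and 0.16 for Arg1.

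On TDD, Otc and Arg2 rose and Prodh fell with ABX at q under 0.05, none by 2-fold, where 7.19% of all genes were higher, 8.3% lower and 1.67% past both limits. The groups did not overlap for these 3 genes, as for 11% of all genes. Prodh was measured at 35.3, 41.6, 39.2, 48.0 and 32.4 CPM in TDD mice with ABX, each below the lowest TDD mouse without ABX at 55.8 CPM. Its log2 level fell by 0.83 with a standard error of 0.15 (q = 0.00189, edgeR). Its mean of 39.3 ± 6.03 CPM was near the 40.7 ± 4.30 CPM of CD mice with ABX (SD, n = 5).

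Otc was measured at 154, 139, 152, 129 and 129 CPM in TDD mice with ABX, above the 121 CPM of the highest TDD mouse without it. It rose by 0.28 (standard error 0.06, q = 0.0088, edgeR), to 141 ± 11.9 CPM from 116 ± 7.03 CPM (SD, n = 5). Arg2 was measured at 407, 381, 348, 318 and 357 CPM with ABX and at 243, 310.0, 268, 279 and 317 CPM without. The lowest ABX mouse and the highest mouse without ABX differed by about 1 CPM. Arg2 rose by 0.35 (standard error 0.10, q = 0.0186, edgeR), with q = 0.0556 without TDD+ABX mouse 1. Beside these, the enterocyte genes summed to 8573 to 9848 CPM without ABX and 12006 to 14882 CPM with it, with 3 of the 6 higher. Lower levels were found for 1 of 4 macrophage, 1 of 3 Paneth and 2 of 4 liver genes, and higher levels for 1 of 3 goblet and 1 of 3 erythroid genes. The part of these cells was not tested. Cps1 went in the same direction without passing (0.35, standard error 0.18, q = 0.204). Aldh18a1 changed by -0.05 (standard error 0.13) and Oat by 0.02 (standard error 0.07, q = 0.885), and for both the ranges of mice with and without ABX overlapped. Arg1 changed by -0.60 (standard error 0.32, q = 0.22) and Ass1 by -0.28 (standard error 0.20, q = 0.354). The 4 liver genes summed to at most 22.0 CPM in these mice without ABX and 2.61 CPM with it.

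**Figure D3:**
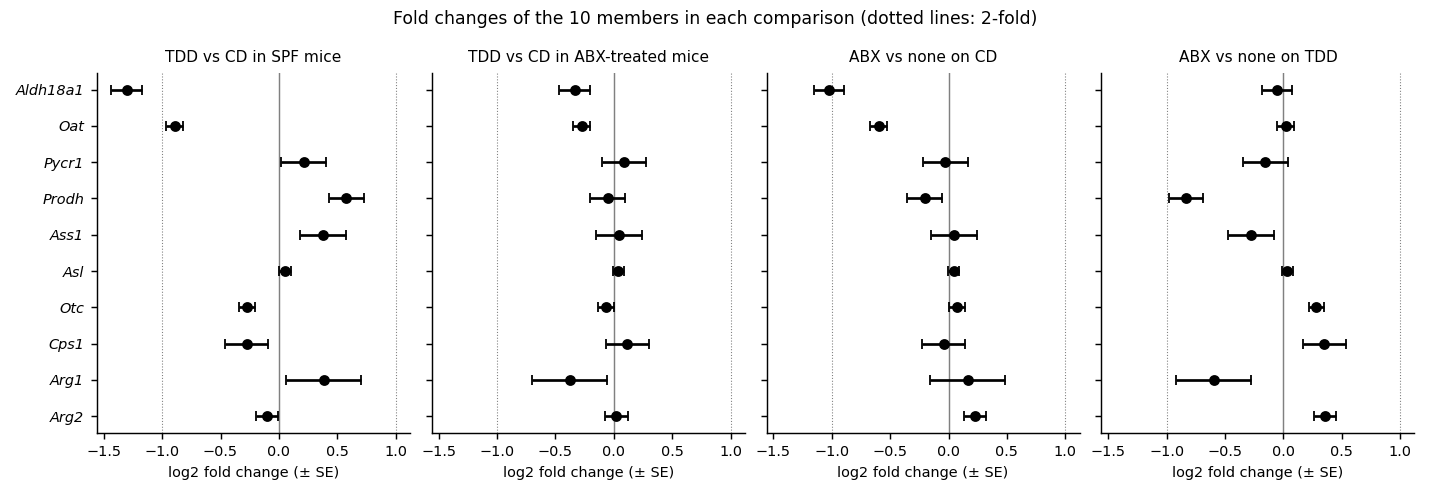
Log2 fold change of each of the 10 genes in the 4 comparisons, with bars for the standard error, a solid line at no change and dotted lines at 2-fold. Aldh18a1 (-1.30 and -1.02) and Oat (-0.89 and -0.60) stand to the left in the comparisons that involve untreated CD mice. Prodh stands to the right for TDD against CD in SPF mice (0.58) and to the left for ABX on TDD (-0.83).

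Over the 4 groups, untreated CD mice thus stood apart from the other 15 for both Aldh18a1 and Oat. For Aldh18a1 this was set in part by its choice. The share of all genes with such a separation was not counted, so nothing is read from it. CD mice were apart from TDD mice for 9.58% of all genes, and from CD mice with ABX for 9.74%. Ddah1, a gene of the wider pathway given below and picked here for its values, was apart in the other direction. It had at most 6.63 CPM in CD mice, and at least 13.7 CPM on TDD, 16.7 CPM on CD with ABX and 16.3 CPM on TDD with ABX. The short form of Aldh18a1 was at 67.8 to 109 TPM in CD mice, and at 27.2 to 38.5 TPM on TDD, 29.4 to 45.0 TPM on CD with ABX and 26.1 to 38.0 TPM on TDD with ABX. The long form was at 36.8 to 57.6 TPM on CD, and at 12.2 to 23.7 TPM, 17.2 to 32.2 TPM and 18.2 to 27.4 TPM in the other groups. Both forms were therefore highest in untreated CD mice. Of the sum of both, the short form made up 65.5 ± 2.73% on CD, 61.6 ± 5.98% on TDD, 60.0 ± 2.26% on CD with ABX and 55.9 ± 2.69% on TDD with ABX (SD, n = 5). All 5 TDD mice with ABX, at 52.6% to 58.9%, were below all 5 CD mice, at 62.7% to 68.6%, while TDD mice overlapped both. The forms share nearly all of their sequence, so these shares rest on how the authors' kallisto run divided reads between them.

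**Figure D4:**
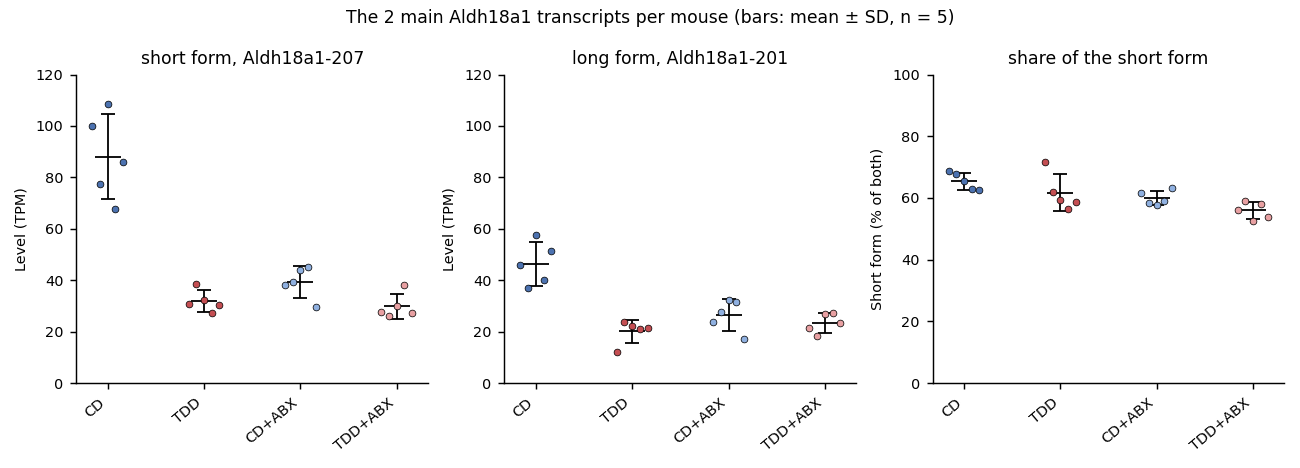
TPM of the short and the long Aldh18a1 transcript in every mouse, and the short form as a percentage of both, with 5 points per group and bars for the mean and SD. Both transcripts are highest in CD mice, and the short form averages 65.5% of both on CD and 55.9% on TDD with ABX.

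Among 11134 genes with a mean of at least 5 CPM, Oat was the third most like Aldh18a1 over log2(CPM + 1) of the 20 mice (Pearson r = 0.934, Spearman rho = 0.794). By Spearman its rank fell from 3 to 48.5. Such an r holds differences between groups as well as those within them, and within groups r was 0.34 for Oat. The genes above it were Lrfn3, a synaptic adhesion protein (r = 0.963), and St5, which regulates membrane trafficking (r = 0.946). Twsg1, a regulator of BMP signalling (r = 0.927), and Pigk, a subunit of the GPI transamidase (r = 0.908), followed it. Within groups r was 0.682 for Lrfn3, 0.774 for St5, 0.498 for Twsg1 and 0.772 for Pigk, each above that of Oat. The most opposite were the citrate transporter Slc13a2 (r = -0.954), the vitamin transporter Slc5a6 (r = -0.939) and the sterol enzyme Msmo1 (r = -0.938), and within groups these were at -0.769, -0.692 and -0.716. Between other pairs of the 10 genes, r was 0.715 for Otc and Arg2, 0.613 for Otc and Cps1 and 0.652 for Pycr1 and Arg1, and within groups it was 0.587, 0.615 and 0.673. All r are over the same 20 mice and are given as descriptions.

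**Figure D5:**
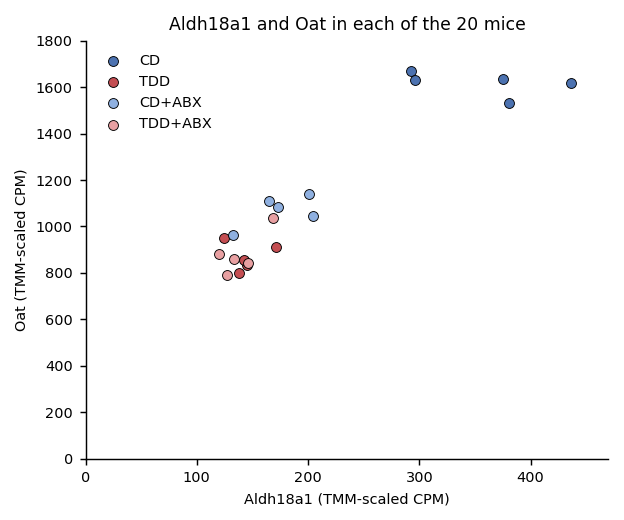
Oat against Aldh18a1 (both in TMM-scaled CPM) in each of the 20 mice, coloured by group. The 5 CD mice form a cluster at 292 CPM or more of Aldh18a1 and 1533 CPM or more of Oat, away from the mice of the other 3 groups. Among these groups, CD mice with ABX hold 963 CPM or more of Oat and TDD mice without ABX 951 CPM or less.

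The wider pathway was taken from 56 other genes of proline, glutamate, urea cycle, arginine use and transport, of which 55 were tested. In SPF mice 9 of them (16.4%) were higher on TDD and 3 (5.45%) lower at q under 0.05, beside 6.7% and 7.73% of all genes. Of the other proline enzymes, Pycrl, a pyrroline-5-carboxylate reductase, was lower (50.2 ± 2.17 to 35.3 ± 2.05 CPM, log2 fold change -0.51, standard error 0.06), and its groups did not overlap. Hoga1, of hydroxyproline breakdown, was higher (1.16 ± 0.405 to 2.37 ± 0.445 CPM). Of the 12 glutamate and aspartate genes, 3 were higher and none lower, namely the asparagine synthetase Asns (0.97), the aspartate aminotransferase Got1 (0.68) and the glutamate dehydrogenase Glud1 (0.47), the last of which kept q under 0.05 in 6 of 20 fits with 1 mouse left out and not without CD mouse 2 (0.42). None of the 4 urea cycle support genes tested passed.

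Among 19 genes that use arginine, 4 were higher and 1 lower on TDD in SPF mice. Ddah1, which breaks down methylated arginine, went from 4.73 ± 1.50 to 16.5 ± 2.82 CPM with no overlap, and Azin1, which relieves ornithine decarboxylase of its inhibitor, from 234 ± 35.9 to 328 ± 27.6 CPM (SD, n = 5). Odc1, the ornithine decarboxylase itself, went from 113 ± 8.88 to 149.8 ± 10.8 CPM, and was named after its values were seen. Gamt, of creatine synthesis, went from 2.86 ± 0.531 to 1.82 ± 0.200 CPM. The inducible nitric oxide synthase Nos2 had a log2 fold change of 2.80, but TDD mouse 4 alone held 76.1 CPM against 21.6 CPM in the next mouse, and without it the change was 1.54 and no longer had q under 0.05. It was also not under this q with limma-voom, with limma on log2(TPM + 1) or with the 2 SPF groups fitted alone (log2 fold change between 1.33 and 2.81 over the settings). Of 11 transporters, the neutral amino acid carrier Slc6a19 was higher (444 ± 134 to 738 ± 102 CPM) and the proline carrier Slc6a20a lower (296 ± 45.4 to 213 ± 41.3 CPM). Slc6a19 was no longer under this q when mouse 3 or 5 of CD, or mouse 3 or 4 of TDD, was left out (log2 fold change 0.60 at the lowest). The same held for Slc6a20a when mouse 4 of CD or mouse 5 of TDD was left out (-0.38 at the smallest).

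In ABX-treated mice 1 of the 55 genes (1.82%) was higher on TDD and none lower, beside 0.681% and 1.09% of all genes. This was Asns, which averaged 18.2 ± 3.52 CPM in CD mice and 33.6 ± 9.27 CPM in TDD mice (SD, n = 5). It rose by 0.88 (log2, standard error 0.22) with q = 0.0479 (edgeR). It passed in 5 of 20 fits with 1 mouse left out (q up to 0.124 over the alternatives). The interaction passed for none of the 55.

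With ABX on CD, 10 of the 55 genes (18.2%) rose and 2 (3.64%) fell, beside 5.35% and 7.43% of all genes. Among transporters 4 of 11 rose and none fell, led by Slc6a19 (444 ± 134 to 1086 ± 323 CPM, log2 fold change 1.29, q = 0.000736) and Slc3a1 (0.83, q = 0.00168), a heavy subunit of heteromeric amino acid carriers. The heavy subunit Slc3a2 (0.41, q = 0.0141) and its light partner Slc7a7 (0.52, q = 0.00203) also rose. Slc7a9, the light partner of Slc3a1, did not pass (0.33, q = 0.0532) and was named after its values were seen. Among genes that use arginine 4 of 19 rose, namely Ddah1 (2.09, q = 4.5e-05), Odc1 (0.46, q = 0.00194) and the polyamine enzymes Amd1 (0.47, q = 0.00848) and Srm (0.61, q = 0.0393). Gatm, of creatine synthesis, fell by 0.38 (q = 0.0256) and was named after its values were seen. Srm passed in 11 of 20 fits with 1 mouse left out. The glutamine synthetase Glul fell by 0.44 (q = 0.0104), Glud1 rose by 0.57 (q = 0.0164, and 0.46 without a pass without CD+ABX mouse 5), and the mitochondrial carbonic anhydrase Car5a rose by 0.63 (q = 0.0291) and passed in 14 of 20 fits with 1 mouse left out, but not without CD mouse 2 (0.56, q = 0.0528). All these q-values are from edgeR's quasi-likelihood test.

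With ABX on TDD, 9 of the 55 genes (16.4%) rose and 2 (3.64%) fell, beside 7.19% and 8.3% of all genes. Pycrl rose from 35.3 ± 2.05 to 44.1 ± 2.99 CPM (log2 fold change 0.32, q = 0.00211) with no overlap. Slc7a1, a carrier of arginine and ornithine (0.85, q = 0.00382), Slc3a1 (0.81, q = 0.00231), Slc7a7 (0.38, q = 0.013) and Slc6a19 (0.64, q = 0.0382, which passed in 12 of 20 fits with 1 mouse left out) rose among the 11 transporters. Among the 19 genes that use arginine, Ddah1 (0.82, q = 0.0142), Odc1 (0.36, q = 0.00878) and Gamt (0.74, q = 0.00231) rose, and Gatm again fell by 0.45 (q = 0.0103). The glutaminase Gls2 rose by 0.77 (q = 0.0153) and Glul fell by 0.46 (q = 0.0082, edgeR throughout), and both were above this q with limma on log2(TPM + 1). These values stand beside the enterocyte genes, of which 3 of 6 were higher with ABX on each diet. Mean levels of Fabp2 went from 2849 to 6550 CPM with ABX on CD and from 3019 to 7053 CPM on TDD. Those of Vil1 went from 3679 to 3885 CPM and from 3619 to 3725 CPM, so that the rise was not shared by all enterocyte genes. Its part was not tested.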

How the data were processed

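RNA from whole pieces of ileum was poly-A selected and sequenced on an Illumina NovaSeq. The authors assigned the reads to GRCm38 transcripts with kallisto (version 0.44.0) and deposited estimated counts per gene, not normalized, and estimated counts and TPM per transcript and mouse. Each library is 1 mouse. Here, gene counts were rounded to whole numbers, scaled by TMM and given as CPM. Genes that reached 0.5 CPM in any 1 of the mice entered edgeR (version 4.0.16, quasi-likelihood), with the 4 groups in 1 fit and Benjamini-Hochberg adjustment over all genes (q). The limits of q under 0.05 and 2-fold are those of the study, which names no test within its tool. Transcripts and coordinates are from GENCODE M21 and promoters from RefSeq. The 10 genes, the pathway and marker lists and the comparisons were chosen with earlier results of these data known. The text names all 10 genes, in each list up to 4 genes per comparison with q under 0.05 and the largest change, and the 5 genes most like and 3 least like Aldh18a1. DESeq2 (version 1.42.0), limma (version 3.58.1), other scalings and filters, a replicate block and leaving out 1 mouse at a time were alternatives. The result of 1 marker list is not reported here.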

Additional observations from a re-analysis of the deposited data

Results flagged for a closer look

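The diet effect on Oat differed between ABX-treated and SPF mice by 0.62 on the log2 scale (interaction q = 0.0433, edgeR's quasi-likelihood test), with the limits given above. Among 40 sets of 5 mice, being 10 genes in 4 groups, 2 held a mouse far from the other 4 by Dixon's criterion, which chance meets in about 1 of 20 sets. Pycr1 was at 3.93 CPM in CD+ABX mouse 3, where the other 4 mice of the group had 4.96 to 5.27 CPM. Arg2 was at 299 CPM in CD+ABX mouse 4, where the other 4 had 358 to 378 CPM.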

How the results depend on the processing

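The count of the 10 genes past both limits was 1, 0, 1, 0 and 0 for the diet in SPF mice, the diet in ABX-treated mice, ABX on CD, ABX on TDD and the interaction. With limma on log2(TPM + 1) it was 0 for ABX on CD and 1 for the interaction. In fits without 1 of the mice it was 0 to 1 for ABX on CD, 0 to 1 for the interaction, and 1, 0 and 0 in every fit for the other 3. The 1 is Aldh18a1, chosen by the comparison in SPF mice, with which the others on CD share mice, so that these counts are no sign of stability. Mice that share a replicate number did not deviate together (r from -0.417 to 0.268), and with the replicate block the count stayed at 1, 0, 1, 0 and 0, with q = 0.118 for the interaction of Oat. Of 390 fold changes of the 10 genes under other settings 0 turned a called direction and 382 stayed on their side of q = 0.05, as did 976 of 1000 with 1 mouse left out. Over all genes, calls past both limits ranged from 140 to 325 under other settings (300 as reported) for the diet in SPF mice, 25 to 98 (54) with ABX, 131 to 406 (375) for ABX on CD, 98 to 313 (272) for ABX on TDD and 0 to 51 (4) for the interaction. With 1 mouse left out they ranged from 221 to 371, 26 to 67, 284 to 405, 173 to 427 and 0 to 14. The causes were not tested. With CPM in place of TPM, 6 of the 10 genes kept their rank, and by Spearman 3 of the 8 genes most or least like Aldh18a1 stayed. Arg1, with at most 70 counts in a mouse, had the largest standard errors, and its 95% interval for the diet in SPF mice ran from -0.30 to 1.07 on the log2 scale.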
